A study of Mus musculus with 15 samples.

Results

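The interferon regulatory factors (IRFs) and the signal transducers and activators of transcription (STATs) were examined in tumor-associated macrophages (TAMs) through 9 genes, Irf1, Irf2, Irf3, Irf5, Irf7, Irf9, Stat2, Stat3 and Stat5a. The genes were chosen with earlier results of these data known, by their symbols in the deposited table, which lists 55335 mouse genes. All 9 were among the 11419 genes that averaged 1 FPKM or more and were tested. FPKM is the number of fragments divided by the length of the transcript in kilobases and by the mapped fragments of the sample, so that levels of different genes can be compared. TAMs had been sorted by FACS, with antibodies that included CD11b, from tumors that grew in the liver of C57BL/6 mice for 3 weeks after injection of Hepa1-6 cells, a mouse hepatoma line carrying luciferase. The 3 groups of 5 samples, all of them labelled as untreated, were TAMs from control HCC, from HCC with miR-144 overexpression and from HCC with miR-451a overexpression. In both miRNA groups the overexpression was in the tumor cells and not in the TAMs, the mice were of the same strain in all groups, and the labels give no age. The comparisons therefore ask how a miRNA in the tumor cells goes along with these factors in the macrophages around them.

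IRFs and STATs carry signals from cytokines and pathogen sensors to the genome. Type I interferon activates Janus kinases on its receptor, and the complex ISGF3, which contains STAT2 and IRF9, then binds the interferon-stimulated response element (ISRE) of antiviral genes. IRF3 and IRF7 are phosphorylated downstream of nucleic acid sensors and switch on the interferon genes themselves, while IRF5 acts downstream of Toll-like receptors and IRF1 is a product of interferon-gamma signalling that competes with the repressor IRF2. STAT3 transmits IL-6 and IL-10 signals and STAT5 the signals of GM-CSF, and STAT dimers bind gamma-activated sites (GAS). The activity of STATs and of IRF3 is set by phosphorylation, which RNA levels do not measure.

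The promoters of 4 members are shown because they hold the matches to an ISRE or GAS, or, for Irf7, because the gene changed most. The windows run from 250 bases before to 50 bases after a RefSeq start site on GRCm38.p6, 5′ to 3′ on the strand of the gene, with the matches in capitals. They are chr11:53769764-53770063 (plus strand) for Irf1, chr8:46739495-46739794 (plus) for Irf2, chr10:128270248-128270547 (plus) for Stat2 and chr7:141266375-141266674 (minus) for Irf7.
Irf1: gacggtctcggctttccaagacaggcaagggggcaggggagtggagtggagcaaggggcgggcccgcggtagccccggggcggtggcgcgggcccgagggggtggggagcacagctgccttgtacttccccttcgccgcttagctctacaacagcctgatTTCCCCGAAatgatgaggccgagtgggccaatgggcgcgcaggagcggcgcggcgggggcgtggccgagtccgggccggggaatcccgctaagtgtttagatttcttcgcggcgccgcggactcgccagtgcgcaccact
Irf2: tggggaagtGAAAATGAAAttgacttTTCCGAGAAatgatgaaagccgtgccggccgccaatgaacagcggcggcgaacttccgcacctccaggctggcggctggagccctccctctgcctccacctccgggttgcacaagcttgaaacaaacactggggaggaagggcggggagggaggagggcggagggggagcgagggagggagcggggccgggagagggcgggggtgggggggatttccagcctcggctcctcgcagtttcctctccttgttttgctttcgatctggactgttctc
Stat2: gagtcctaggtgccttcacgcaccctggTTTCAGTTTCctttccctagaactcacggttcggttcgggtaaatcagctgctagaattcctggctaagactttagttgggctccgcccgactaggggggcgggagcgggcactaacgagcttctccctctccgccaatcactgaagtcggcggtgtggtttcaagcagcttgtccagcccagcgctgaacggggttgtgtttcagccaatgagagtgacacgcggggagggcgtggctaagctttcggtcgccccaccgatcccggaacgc
Irf7: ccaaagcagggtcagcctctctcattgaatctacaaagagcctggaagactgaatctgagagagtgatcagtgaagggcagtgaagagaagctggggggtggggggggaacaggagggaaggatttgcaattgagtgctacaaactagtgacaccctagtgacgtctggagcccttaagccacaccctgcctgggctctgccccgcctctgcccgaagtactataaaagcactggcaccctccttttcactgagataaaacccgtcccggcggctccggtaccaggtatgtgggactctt

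The ISRE core was searched as GAAANNGAAA and the GAS as TTCNNNGAA, on both strands, in every window of the 9 genes. The ISRE core occurred in Irf2, at position -241 from the start site, and in Stat2, at position -222, whereas 3.44% of 32851 mouse promoter windows of the same length hold it. The GAS occurred in the first of the 2 windows of Irf1, at position -90, and in Irf2, at position -224, against 8.3% of all windows. Irf3, Irf5, Irf7, Irf9, Stat3 and Stat5a held neither sequence in these windows. A shorter IRF site, AANNGAAA, which overlaps the ISRE core, is in 23.9% of all windows and among the members occurred in Irf2 and Stat2. The Stat2 window ends before the start of the gene in GENCODE M21, and its first transcribed bases, like those of the second window of Irf1, were not found in a transcript of that annotation. A match is a stretch of letters and not a binding site, and Irf2, which holds both sequences, was not among the genes that passed the test below.

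Against control, 5 of the 9 members were higher in the miR-144 group and the same 5 in the miR-451a group, 1 was lower in both and 3 passed the test in neither. Irf7 rose most, with a ratio of mean FPKM of 4.62 in the miR-144 group and 4.69 in the miR-451a group, followed by Stat2 and Irf9, which belong to ISGF3, with ratios of 1.74 to 1.83. Irf3 and Stat3 rose by 18.2% to 27.6% of their control means, and Stat5a fell by 16.5% and 11.8%. Log2(FPKM + 1) was tested with limma in a single fit of the 3 groups, and a gene was called at a Benjamini-Hochberg adjusted p under 0.05 over the 11419 genes. Calls were common in these samples: 47.1% of all genes tested were higher and 20.1% lower in the miR-144 group, and 48.1% were higher and 20.3% lower in the miR-451a group. The counts of members called are to be read against those shares, and both comparisons use the same 5 control samples. The median gene rose by 0.13 on the log2 scale in the miR-144 group and by 0.14 in the miR-451a group, and 70.1% and 70.3% of the called genes were higher. With the samples centred on their medians, 50% and 49.6% of the called genes were higher. Relative to the median gene, Irf7 rose by 1.95 and 1.97, Stat2 by 0.69 and 0.63, Irf9 by 0.59 and 0.61, Irf3 by 0.19 and 0.11 and Stat3 by 0.11 and 0.09, in the miR-144 and miR-451a groups respectively, and Stat5a fell by 0.35 and 0.29.

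**Figure D1:**
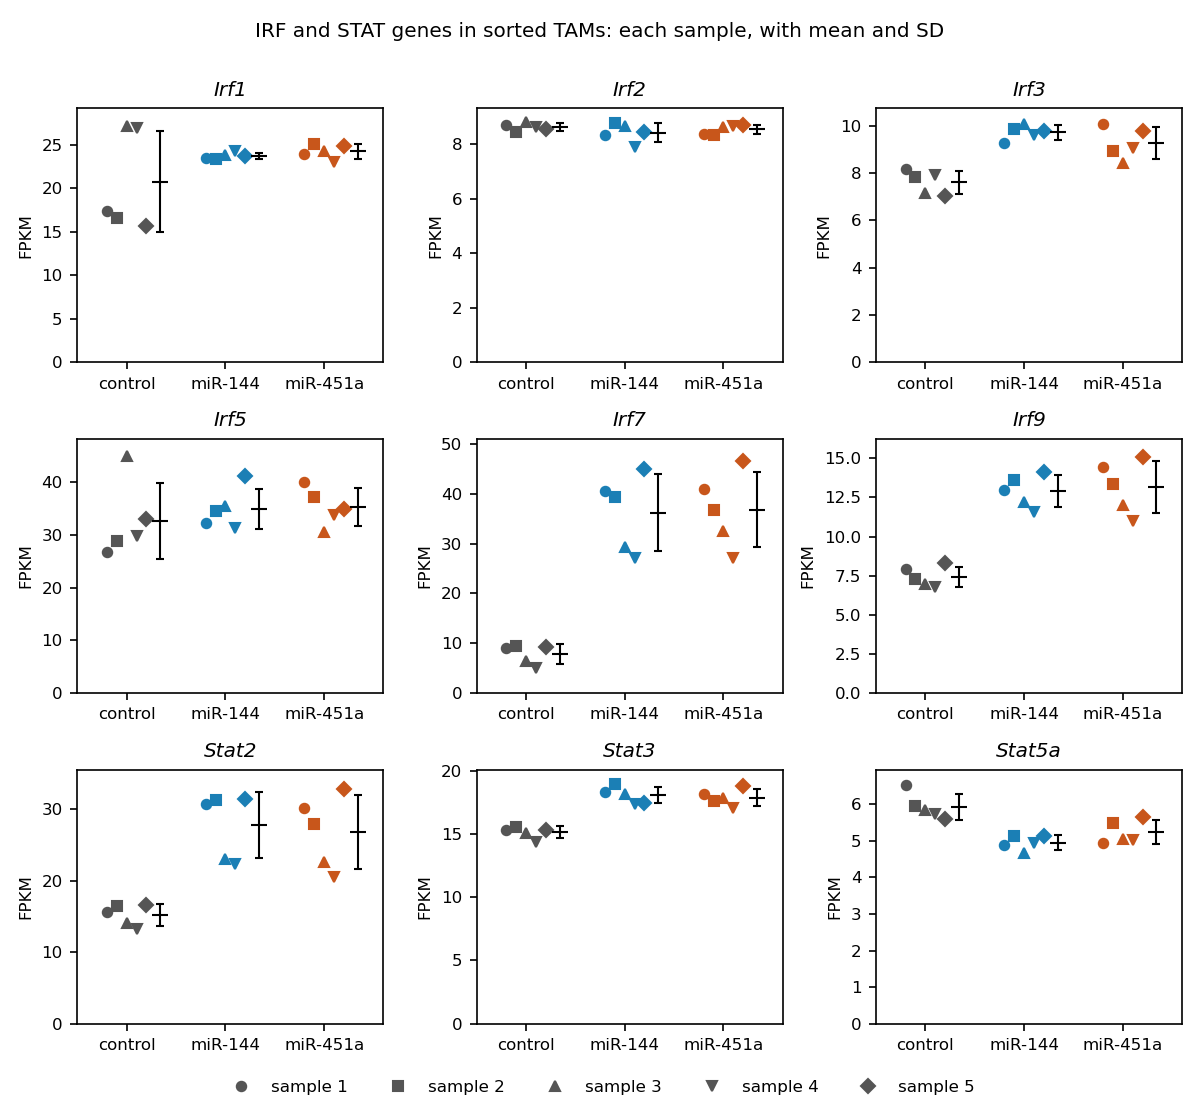
FPKM of the 9 members in each of the 15 samples. The horizontal axis gives the group and the vertical axis FPKM from 0, symbols stand for the sample number in the labels, and the bar beside each group is the mean ± SD (n = 5). Irf7 lay between 27.1 and 46.6 FPKM in the miRNA groups and between 5.04 and 9.39 in the control group, while Irf2 stayed between 7.90 and 8.83 in all groups.

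Irf7, the factor that amplifies type I interferon production, was at 9.13, 9.39, 6.41, 5.04 and 9.29 FPKM in control samples 1 to 5. It was at 40.6, 39.4, 29.3, 27.1 and 45.1 FPKM in the miR-144 samples and at 41.1, 36.9, 32.5, 27.2 and 46.6 FPKM in the miR-451a samples. Every sample of both miRNA groups was above every control sample. The log2 fold change was 2.08 ± 0.19 (SE) in the miR-144 group (limma, adjusted p = 1.06e-07) and 2.11 ± 0.19 in the miR-451a group (limma, adjusted p = 8.78e-08). The gene, ENSMUSG00000025498, lies on chromosome 7 at 141262706 to 141266481 on the minus strand of the GENCODE M21 annotation (GRCm38). Its exons overlap those of Phrf1 on the other strand by 45 bases, and Phrf1 was at 3.43 to 5.98 FPKM in all samples. Whether the counting used strand is not given in the sources used here, and without it fragments of such overlaps cannot be assigned to 1 of the genes.

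Irf9, the DNA-binding subunit of ISGF3, was at 7.90, 7.25, 6.96, 6.76 and 8.28 FPKM in the control samples. Its levels were 13.0, 13.6, 12.2, 11.6 and 14.2 FPKM in the miR-144 samples and 14.5, 13.3, 12.02, 11.02 and 15.1 FPKM in the miR-451a samples. No miRNA sample overlapped the control group. The log2 fold changes were 0.72 ± 0.08 (SE, limma, adjusted p = 1.12e-06) and 0.74 ± 0.08 (adjusted p = 7.61e-07). Irf9 (ENSMUSG00000002325, chromosome 14, 55603571 to 55610030, plus strand) shares 123 exon bases with Rnf31 on the same strand, so that fragments of both genes cannot be told apart there. Rnf31 itself was at 6.13 FPKM in the control group and 8.28 and 8.49 FPKM in the miRNA groups.

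Stat2, the STAT that is particular to interferon signalling through ISGF3, was at 15.6, 16.5, 14.03, 13.2 and 16.6 FPKM in the control samples. It was at 30.7, 31.2, 23.1, 22.4 and 31.4 FPKM in the miR-144 samples and at 30.2, 27.9, 22.6, 20.5 and 32.9 FPKM in the miR-451a samples. All 10 miRNA samples were above the highest control sample, with miRNA samples 3 and 4 nearest to it. The log2 fold changes were 0.82 ± 0.13 (SE, limma, adjusted p = 5.71e-05) and 0.76 ± 0.13 (adjusted p = 0.000104). Stat2 (ENSMUSG00000040033) lies on chromosome 10 at 128270559 to 128292849, on the plus strand.

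Irf3, the constitutive factor that acts with IRF7, was at 8.16, 7.83, 7.15, 7.91 and 7.03 FPKM in the control samples. It was at 9.28, 9.88, 10.1, 9.59 and 9.77 FPKM in the miR-144 samples and at 10.1, 8.94, 8.42, 9.04 and 9.79 FPKM in the miR-451a samples. The groups did not overlap, but miR-451a sample 3 was close to control sample 1. The log2 fold change was 0.32 ± 0.05 (SE, limma, adjusted p = 3.77e-05) in the miR-144 group and 0.25 ± 0.05 (adjusted p = 0.000313) in the miR-451a group, where it no longer passed the threshold with the samples centred on their medians (0.11, adjusted p = 0.0685). Irf3 (ENSMUSG00000003184, chromosome 7, 44997648 to 45002848, plus strand) overlaps Bcl2l12 on the other strand by 88 exon bases.

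Stat3, the transducer of IL-6 and IL-10, was at 15.3, 15.6, 15.1, 14.3 and 15.3 FPKM in the control samples. Its levels were 18.3, 18.9, 18.2, 17.4 and 17.4 FPKM in the miR-144 samples and 18.1, 17.6, 17.8, 17.0 and 18.8 FPKM in the miR-451a samples. The spread within groups was small and no miRNA sample reached down to the control group. The log2 fold changes were 0.24 ± 0.03 (SE, limma, adjusted p = 1.31e-05) and 0.23 ± 0.03 (adjusted p = 2.16e-05). Stat3 (ENSMUSG00000004040) lies on chromosome 11 at 100885098 to 100939540 on the minus strand and its exons overlap those of Stat5a, its neighbour on the plus strand, by 72 bases.

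Stat5a, a transducer of GM-CSF and IL-3 signals, was the member that fell. It was at 6.53, 5.97, 5.84, 5.74 and 5.60 FPKM in the control samples, at 4.90, 5.14, 4.68, 4.93 and 5.14 FPKM in the miR-144 samples and at 4.95, 5.498, 5.04, 5.03 and 5.67 FPKM in the miR-451a samples. The miR-144 group lay wholly below the control group, whereas miR-451a sample 5 was above the lowest control sample. The log2 fold changes were -0.22 ± 0.04 (SE, limma, adjusted p = 0.000435) and -0.15 ± 0.04 (adjusted p = 0.00609), and the second was lost when the samples were rescaled to 1 common sum, as in TPM (-0.09, adjusted p = 0.128). Stat5a (ENSMUSG00000004043, chromosome 11, 100859351 to 100885169, plus strand) has 10.8% of the stretches of 50 bases in its longest transcript in common with its paralog Stat5b, and the split of such fragments between both genes is uncertain. Stat5b moved the other way, from a mean of 11.7 FPKM in the control group to 14.5 FPKM in both miRNA groups (log2 fold changes 0.29 and 0.29, limma, adjusted p = 3.82e-06 and 3.8e-06).

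Irf1, the activator of interferon-gamma genes, did not pass the test in either comparison. The control samples fell apart into samples 3 and 4, at 27.2 and 26.9 FPKM, and samples 1, 2 and 5, at 17.3, 16.6 and 15.7 FPKM. The miR-144 samples, at 23.5, 23.4, 23.8, 24.3 and 23.7 FPKM, and the miR-451a samples, at 23.9, 25.1, 24.2, 23.0 and 24.8 FPKM, all lay in the gap between them. The log2 fold changes were 0.22 ± 0.13 (SE, limma, adjusted p = 0.132) and 0.25 ± 0.13 (adjusted p = 0.0896). Without control sample 3 they were 0.33 (adjusted p = 0.0183) and 0.36 (adjusted p = 0.0113), and without control sample 4 they were 0.32 (adjusted p = 0.0217) and 0.35 (adjusted p = 0.0136), so that the call rests on these samples. After rescaling to TPM, with all samples, Irf1 passed with 0.30 (adjusted p = 0.049) and 0.34 (adjusted p = 0.027). Irf1 (ENSMUSG00000018899) lies on chromosome 11 at 53770014 to 53778374 on the plus strand.

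Irf5, which drives inflammatory cytokine genes in macrophages, was at 26.7, 29.0, 45.01, 29.8 and 33.0 FPKM in the control samples. It was at 32.3, 34.5, 35.6, 31.3 and 41.2 FPKM in the miR-144 samples and at 40.1, 37.2, 30.6, 33.8 and 34.9 FPKM in the miR-451a samples. Control sample 3 was the highest of all 15, and control samples 1, 2 and 4 were below every miRNA sample. The log2 fold changes were 0.11 ± 0.12 (SE, limma, adjusted p = 0.425) and 0.13 ± 0.12 (adjusted p = 0.361). Without control sample 3 they were 0.23 (adjusted p = 0.0332) and 0.24 (adjusted p = 0.024), and with median centring they were -0.02 in both comparisons. The exons of Irf5 (ENSMUSG00000029771, chromosome 6, 29526625 to 29541871, plus strand) overlap those of Tnpo3 on the other strand by 411 bases, the longest such overlap of a member.

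Irf2, the repressor that competes with IRF1, was at 8.70, 8.46, 8.83, 8.63 and 8.55 FPKM in the control samples. It was at 8.33, 8.76, 8.69, 7.90 and 8.44 FPKM in the miR-144 samples and at 8.37, 8.34, 8.65, 8.67 and 8.70 FPKM in the miR-451a samples. The 3 groups lay over each other and the log2 fold changes were -0.03 ± 0.03 (SE, limma, adjusted p = 0.34) and -0.01 ± 0.03 (adjusted p = 0.702). Its 95% intervals, -0.10 to 0.03 and -0.08 to 0.05, were the narrowest of the 3 members that were not called. The sign depended on the scaling: with median centring Irf2 was lower and called (-0.17 and -0.16, limma, adjusted p = 0.000288 and 0.000451), and after rescaling to TPM the values were 0.03 and 0.07. Irf2 (ENSMUSG00000031627) lies on chromosome 8 at 46739732 to 46847458 on the plus strand.

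**Figure D2:**
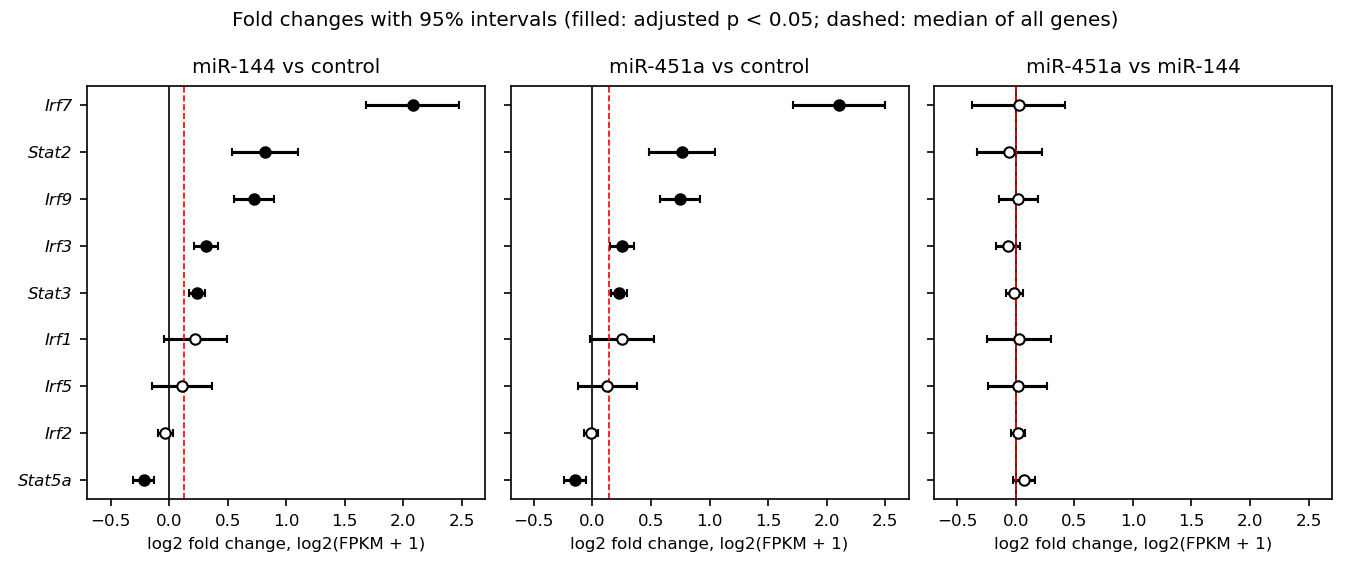
Log2 fold changes of log2(FPKM + 1) for the 9 members in the 3 comparisons, with 95% intervals from limma. Filled points passed an adjusted p of 0.05, open points did not, and the dashed line is the median of the 11419 genes. Irf7 stood at 2.08 and 2.11 against control, and all 9 open points of the comparison of the miRNA groups lay within 0.07 of 0.

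Groups that did not overlap were seen for 5 members upward and 1 downward in the miR-144 group, where 37.9% of all genes tested did so upward and 16.0% downward. In the miR-451a group the same was true of 5 members upward and of none downward, against 38.8% and 16.4% of all genes. The members that moved up without overlap were Irf3, Irf7, Irf9, Stat2 and Stat3 in both comparisons. The samples are bulk RNA of sorted cells, in which fewer cells of a type and less RNA per cell cannot be told apart. The labels do not say that the samples of a group came from separate mice, and the p-values measure the spread between these samples. The paper's figure legend on this sequencing gives a smaller n than the 5 samples per group used here, and the sources used do not explain the difference.

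Between the miRNA groups no member differed, and limma called 0% of all genes, with 596 of the 11419 genes at an unadjusted p under 0.05. The difference of miR-451a minus miR-144 was 0.02 on the log2 scale for Irf7 (95% interval -0.37 to 0.42), 0.02 for Irf9 (-0.15 to 0.19) and -0.05 for Stat2 (-0.34 to 0.23). The intervals were tighter for Irf3 (-0.17 to 0.04), Stat3 (-0.08 to 0.06), Irf2 (-0.04 to 0.08) and Stat5a (-0.03 to 0.16). For Irf1 (-0.24 to 0.30) and Irf5 (-0.24 to 0.27) they were about as wide as for Stat2. The groups overlapped for all 9 members, while 0.849% of all genes tested did not overlap in either direction. These intervals bound how far the groups may differ and do not show that they were alike. The intervals are those of the fit without the sample number, with an SE of 0.1854 for Irf7, 0.0794 for Irf9 and 0.1313 for Stat2. With the sample number as a block these were 0.0498, 0.0367 and 0.0516, which would narrow the intervals of these genes.

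In the order of the 9 levels, Irf7 was the sixth in the control group and the first in both miRNA groups, Irf9 went from the eighth to the sixth and Irf2 from the fifth to the eighth, and Stat2 stood below Irf1 in the control group and above it in both miRNA groups. In the control group the order of the means was Irf5 (32.7 FPKM), Irf1 (20.7), Stat2 (15.2), Stat3 (15.1), Irf2 (8.64), Irf7 (7.85), Irf3 (7.61), Irf9 (7.43) and Stat5a (5.94). Neighbours in it overlapped between samples except for Stat3 over Irf2 and Irf9 over Stat5a. In the miR-144 group the order was Irf7 (36.3), Irf5 (34.97), Stat2 (27.8), Irf1 (23.7), Stat3 (18.0), Irf9 (12.9), Irf3 (9.72), Irf2 (8.43) and Stat5a (4.96). In it Irf7 overlapped with Irf5, Irf5 with Stat2 and Stat2 with Irf1, and each gene from Irf1 down was above the next in all samples. The miR-451a group had the same order, with Irf7 at 36.8 FPKM and Stat5a at 5.24, and there Irf3 and Irf2 overlapped too.

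Pairs of members with related roles were compared as ratios within each sample, since a ratio of FPKM in a sample does not depend on how that sample was scaled. The ratio of Irf7 to Irf3, the inducible over the constitutive interferon-inducing factor, had a median of 1.12 in the control group (0.637 to 1.32), of 3.98 in the miR-144 group (2.82 to 4.61) and of 4.08 in the miR-451a group (3.01 to 4.76). The groups did not overlap with control, and the log2 ratio was higher by 1.87 and 1.97 (two-sided exact permutation test, p = 0.00794, the smallest that 5 against 5 samples allow; adjusted over 12 comparisons, p = 0.0238). The ratio of Stat5a to Stat3 was 0.366 to 0.426 in the control group, 0.257 to 0.295 in the miR-144 group and 0.273 to 0.312 in the miR-451a group. This ratio fell by 0.51 and 0.42 on the log2 scale without overlap (exact permutation test, p = 0.00794, adjusted p = 0.0238 for both). For both ratios, the ranges of the members given above already kept the miRNA groups apart from control. The tests of these ratios therefore add no separate support.

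The other ratios did not pass the test. Stat2 stood at 1.95 to 2.27 times Irf9 in the control group, 1.88 to 2.37 times in the miR-144 group and 1.86 to 2.18 times in the miR-451a group. These ranges overlapped, while both genes rose. The difference from control was 0.06 and -0.02 on the log2 scale (exact permutation test, p = 0.476 and 0.754, adjusted p = 0.635 and 0.823). The ratio of Irf1 to Irf2 was 1.83 to 3.11 in the control group, with samples 3 and 4 high, and 2.65 to 3.07 over both miRNA groups (exact permutation test, p = 0.167 and adjusted p = 0.286 in both comparisons).

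**Figure D3:**
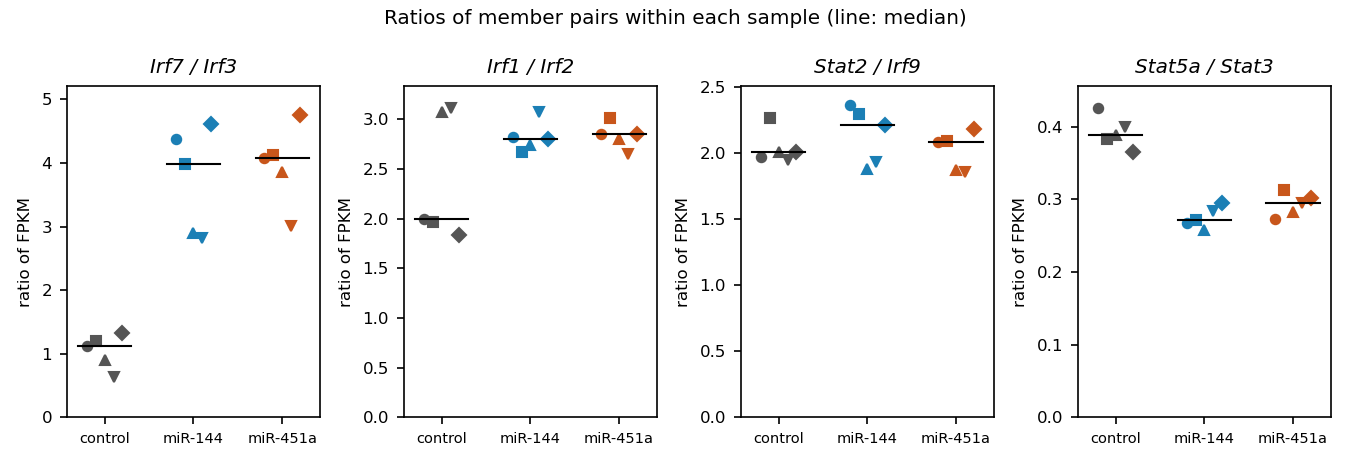
Ratios of FPKM of 4 pairs of members in each sample, by group. The vertical axes are linear and start at 0, symbols stand for sample numbers as in the plot of levels by sample, and lines are medians (n = 5 per group). The ratio of Irf7 to Irf3 had medians of 1.12, 3.98 and 4.08, and the ratio of Stat5a to Stat3 fell without overlap.

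Irf7, Irf9 and Stat2 also varied together among samples of 1 group. In each of the 3 groups, sample 4 was the lowest and sample 3 the next lowest for all of these 3 genes, and none of the other 6 members showed that order in every group. Among all genes tested, 107 of 11419 (0.937%) had this order in all groups. Stat3 also had sample 4 as its lowest in all 3 groups, with sample 3 the next lowest in 1 of them. Over the 15 samples, each centred on its group mean, Pearson's r was 0.884 for Irf7 and Irf9, 0.921 for Irf7 and Stat2 and 0.922 for Irf9 and Stat2, with Spearman's rho of 0.846, 0.832 and 0.879. These were the 3 highest values of r among the 36 pairs of members. Without the 2 samples farthest from the median, r was 0.872, 0.939 and 0.876. The next pair, Irf7 and Stat3, had r = 0.69 and rho = 0.693, and r = 0.451 without 2 samples. Because the order of the sample numbers repeated between the groups for these genes, the 15 deviations cannot be taken as independent, and the correlations are given as a description with no p. The genes of a sample share its library and scaling, and the labels do not say what samples with the same number have in common.

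**Figure D4:**
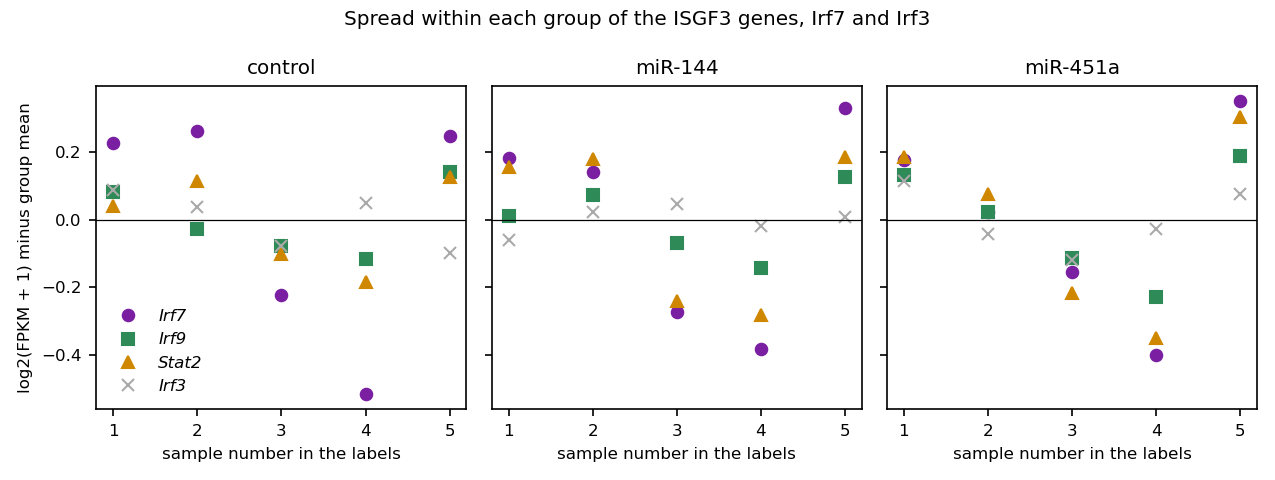
Deviation of Irf7, Irf9, Stat2 and, for comparison, Irf3 from the group mean of log2(FPKM + 1), by the sample number in the labels. Each panel is a group and each symbol a gene. Samples 3 and 4 lay below 0 for Irf7, Irf9 and Stat2 in all 3 groups, and Irf3 did not follow this order.

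The gene whose pattern over the 15 samples was most like that of a member was found by the root mean square difference of log2(FPKM + 1), each gene centred on its control mean. For Irf7 it was Ifi44, an interferon-stimulated gene, with a difference of 0.13, from a mean of 1.68 FPKM in the control group to 10.7 and 10.2 FPKM in the miRNA groups. For Stat2 it was Znfx1, an interferon-induced helicase, at 0.07, and for Irf9 it was Itpr1, an inositol trisphosphate receptor, at 0.06. The nearest genes to Irf3, Irf5, Irf1 and Irf2 were Leng9 (0.05), Slc25a35 (0.11), Scaf11 (0.11) and Larp1 (0.03). Those to Stat3 and Stat5a were Zfp236 (0.03) and Polr2a, the large subunit of RNA polymerase II (0.05).

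The rest of the family and the pathway were read from lists of genes by role, counted as higher, lower or not called by the same test. Their counts, like those of the members, stand beside 47.1% and 48.1% of all genes higher and 20.1% and 20.3% lower in the miR-144 and miR-451a groups. With median centring the shares were 30.8% and 31.3% higher and 30.7% and 31.8% lower. Of 98 list genes tested, Cxcl10, Il10 and Il27 averaged under 1 FPKM in the control group and Cish and Socs1 in both miRNA groups, so that they entered the test through the side on which they were high. Among 8 tested genes of the IRF and STAT families and the IRF2-binding proteins outside the 9 members, 6 were higher and 2 lower in both comparisons, with a median log2 fold change of 0.28 in both. Irf8, a lineage factor of macrophages, rose by 0.67 and 0.68. Irf4, which is linked to alternative activation of macrophages, fell from 6.05 ± 0.923 to 1.26 ± 0.256 and 1.49 ± 0.144 FPKM (-1.64 and -1.49), and Irf2bpl fell by 0.25 and 0.36.

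Of 11 ligands that signal through STATs, 3 averaged 1 FPKM or more over all samples, and the filter favored ligands that are high in some group. Il10, an activator of STAT3, rose from 0.73 to 4.07 and 3.93 FPKM (1.55 and 1.51 on the log2 scale, which understates changes of genes near 1 FPKM), and Il27 from 0.48 to 1.47 FPKM in both groups (0.75 and 0.73). Osm, a ligand of the gp130 family, rose by 0.33 and 0.35, of which the first lost its call under quantile normalization (0.16, limma, adjusted p = 0.0555). Lif and Il6, which were under the filter, averaged 0.74 and 0.04 FPKM in the control group, 0.66 and 0 in the miR-144 group and 0.54 and 0.01 in the miR-451a group. Ifna1, Ifna2, Ifna4, Ifng and Csf2 were listed at 0 in all samples. Ifnb1 was listed at 0 in the control samples, at 0.0346, 0, 0.0495, 0.171 and 0 FPKM in the miR-144 samples and at 0, 0.0622, 0, 0.044 and 0.0573 FPKM in the miR-451a samples, and was not tested. Of 16 tested receptor chains, 10 were higher, 5 lower and 1 not called in both comparisons. Il21r (2.43 and 2.39) and Lifr (2.02 and 2.15) rose most, whereas Csf2rb, the shared signalling chain of the GM-CSF and IL-3 receptors, fell from 94.2 to 23.0 and 22.8 FPKM (-1.997 and -1.99) and Il6st, the gp130 chain of the IL-6 receptor, from 61.5 to 17.0 and 20.6 FPKM (-1.78 and -1.55). The chains of the type I interferon receptor, named after their values were seen, rose by 0.47 and 0.53 for Ifnar1 and by 0.74 and 0.76 for Ifnar2. Il6ra, another chain of the IL-6 receptor and also named after its values were seen, rose from 12.96 to 26.44 and 27.39 FPKM (0.97 and 1.02).

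All 4 Janus kinases were tested, and they did not move together. Jak2, the kinase of the GM-CSF receptor, fell from 22.7 ± 1.09 to 10.1 ± 0.494 and 10.7 ± 0.536 FPKM (SD, n = 5), a log2 fold change of -1.10 and -1.02. Jak3 rose by 0.65 and 0.78, and Tyk2, which serves the type I interferon receptor, by 0.29 and 0.33. Jak1 was at 42.0 FPKM in the control group and 44.4 and 43.9 FPKM in the miRNA groups, with log2 fold changes of 0.08 (limma, adjusted p = 0.0251) and 0.06 (adjusted p = 0.0657), both below the median of all genes, and with median centring its values were -0.06 (limma, adjusted p = 0.137) and -0.08 (adjusted p = 0.0316), so that it lost its call in the miR-144 group and was called lower in the miR-451a group. Jak1 was the only gene named from these lists that changed its sign under median centring, quantile normalization or TPM. Of 12 adaptors and kinases upstream of IRFs, 8 were higher, 1 lower and 3 not called in the miR-144 group, and 6, 1 and 5 in the miR-451a group. With median centring these counts were 6, 1 and 5 and 6, 4 and 2, to be read against the centred shares above. Myd88, the Toll-like receptor adaptor, rose by 0.90 in both, Ikbke, a kinase of IRF3 and IRF7, rose by 0.72 and 0.74, Irak4, a kinase downstream of Myd88, rose by 0.31 and 0.35, and Ticam1, the TRIF adaptor of TLR3 and TLR4, fell by 0.72 and 0.68.

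Among 17 tested inhibitors of JAK-STAT signalling, 12 were higher, 4 lower and 1 not called in the miR-144 group, and 10, 3 and 4 in the miR-451a group. With median centring, where fewer of all genes were higher, 7 were higher and 4 lower in the miR-144 group and 7 were higher and 5 lower in the miR-451a group. Ptpn6, the phosphatase SHP-1, rose from 53.1 to 123.9 and 123 FPKM (1.20 in both), and Socs3, a feedback inhibitor of gp130 signalling, from 6.35 to 12.1 and 12.9 FPKM (0.83 and 0.92). In contrast, Cish, a feedback inhibitor of STAT5, fell from 7.38 ± 0.905 to 0.12 ± 0.033 and 0.11 ± 0.044 FPKM (SD, n = 5; -2.90 and -2.92), and Socs1, a feedback inhibitor of interferon signalling, from 4.75 to 0.24 and 0.27 FPKM (-2.21 and -2.18).

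Genes known as targets of these factors were counted next. These lists were chosen with earlier results of these data known, so that their counts are no independent check. All 20 listed targets of ISGF3 were higher in both comparisons and under each of these scalings, with a median log2 fold change of 1.55 and 1.51, beside 0.13 and 0.14 for all genes. Their fold changes in the miR-144 group ran from 0.66 for Usp18 and 0.86 for Bst2 to 3.59 for Ifit3, which rose from 6.95 to 94.7 and 89.9 FPKM, and Mx1 rose from 1.14 to 13.3 and 12.3 FPKM. Of 11 targets of IRF1, 7 were higher, 2 lower and 2 not called in both comparisons. Igtp (1.26 and 1.29) and Gbp3 (1.07 and 1.08), GTPases induced by interferon-gamma, rose, while Socs1 fell and Cd274, which encodes PD-L1, fell from 55.0 to 13.3 and 12.2 FPKM (-1.97 and -2.09).

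Of 9 targets of STAT3, 5 were higher, 2 lower and 2 not called in the miR-144 group and 6, 2 and 1 in the miR-451a group. Cebpd (1.28 and 1.41) and Il4ra (1.04 and 1.07) rose, and Nfil3 (-1.80 and -1.79) and Pim1 (-1.44 and -1.52) fell. Of 5 tested targets of STAT5, 3 were higher and 2 lower in both comparisons. Bcl2l1 (0.75 and 0.72) and Osm (0.33 and 0.35) rose, and Cish and Pim1, which also stands in the list of STAT3 targets, fell. No gene of any of these lists was called between the miRNA groups.

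**Figure D5:**
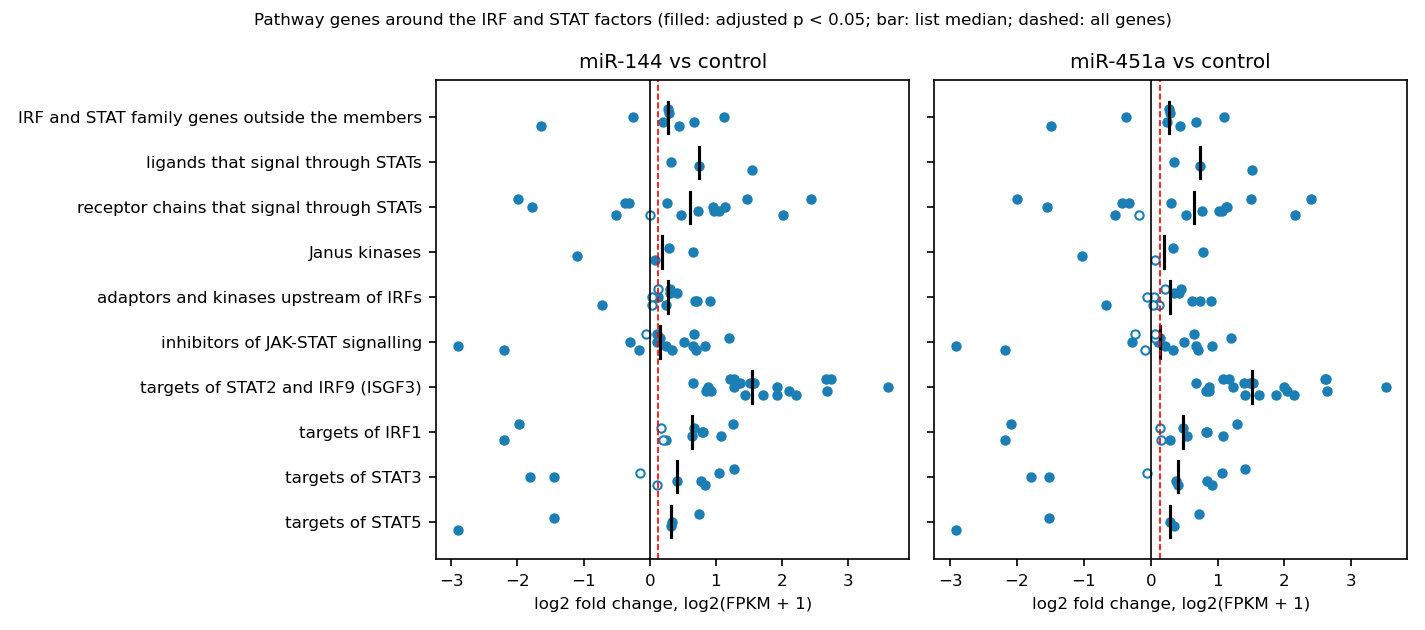
Log2 fold changes of log2(FPKM + 1) against control for the tested genes of each list. Each point is a gene, filled where the adjusted p was under 0.05, the black bar is the median of the list and the dashed line the median of all genes. The lists were chosen with earlier results of these data known. The 20 ISGF3 targets lay wholly to the right of 0, with medians of 1.55 and 1.51, whereas the lists of inhibitors and receptors reached to both sides.

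The depth implied by the steps between low values was 15.7 to 30.9 M fragments per sample, an approximate value since only 43.7% to 57.5% of the low values fell on a step, against 10% by chance. At that depth the lowest sample of each member held an implied 307 fragments (Stat5a) to 1715 (Stat3). The summed FPKM was 300620 to 307552 in the control samples and 283362 to 295105 in the miRNA samples. Macrophage markers summed to 8694 to 9526 FPKM in the control group, 14690 to 16550 in the miR-144 group and 14380 to 15590 in the miR-451a group. Most of that sum was Lyz2, with group means of 6894, 13170 and 12580 FPKM, and the means of Adgre1 (137 to 361 and 354.3 FPKM), Csf1r (401.3 to 691 and 693.3), Fcgr1 (18.0 to 121.9 and 117.7) and Mertk (40.6 to 61.2 and 62.7) were higher too. Cd68 moved the other way, from 1444 to 919.3 and 910.4 FPKM, and 1 of the 2 rows of Itgam was higher (25.4 to 63.8 and 53.4), while the other was at 49.9, 46.4 and 62.2 FPKM. T cell and NK cell lists stayed below 0.5 FPKM, with Cd3e, Cd3g and Ncr1 at 0, and 4 of 5 hepatocyte markers, Alb included, were at 0 in all samples. The fibroblast list of 4 genes, led by Col1a1, moved with the groups, at 103.2 to 127.9 FPKM in control samples, 136 to 201.1 in miR-144 samples and 174.2 to 223 in miR-451a samples. The B cell list of 4 genes rose from 0.14 to 0.38 FPKM in control samples to 1.12 to 1.73 in miRNA samples, almost all of it Cd79b. The other lists that moved without overlap with control were those of endothelial cells (3.70 to 4.29 against 4.66 to 5.93 FPKM, most of it Kdr), dendritic cells (0.25 to 0.31 against 0.42 to 0.67 FPKM) and, downward, neutrophils (64.9 to 79.2 against 44.1 to 53.2 FPKM, nearly all of it Csf3r, with Retnlg at 0). The NK cell list also fell, from 0.19 to 0.42 FPKM in control samples to 0.03 to 0.17 in miRNA samples. The part of these cells and of the level of macrophage markers in the results on IRFs and STATs was not tested.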

How the data were processed

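RNA of sorted TAMs was sequenced on an Illumina instrument, and the authors deposited FPKM per gene for 15 samples in 3 groups of 5. The submitters' processing notes name FastQC 0.11.2, STAR and StringTie, and the genome build, the annotation and whether strand was used are not given in the sources used here. Groups and sample numbers were taken from the labels. The 9 members and the gene lists were chosen with earlier results of these data known.

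FPKM was transformed as log2(FPKM + 1), which understates changes of low genes. The 11419 genes averaging 1 FPKM or more were fitted with limma 3.58.1 in R 4.3.3, using a trend of the variance on the mean and adjusting p by Benjamini-Hochberg, a step that was also tested on simulated data. Standard errors and 95% intervals are those of that fit. Log2 ratios of FPKM were compared with two-sided exact permutation tests over 252 splits, adjusted over 12 comparisons, and 36 correlations of deviations from group means; their p values from 100000 permutations within groups are not given, since that test takes the 15 samples as independent. From each list the genes named are the 2 highest and 2 lowest genes among those called in both comparisons, and all Janus kinases. Chosen after their values were seen were Stat5b, Ifnar1, Ifnar2, Il6ra and the ligands listed at or near 0. The values of 2 genes of the lists are not reported here, while counts and sums include them. Alternatives were a pseudocount of 0.1 (1 for the ratios), a threshold of 5 FPKM on the mean or none, centring on sample medians, quantile normalization, TPM, limma without a trend, a fit of only the groups compared, the sample number as a block, and each sample left out in turn.

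Depth was read from the product of FPKM and length of 10664 genes with a single transcript of at least 1000 bases. Identifiers matched GENCODE M21 for 99.67% of genes, whose 1-based coordinates are printed and may differ from those of the authors. All 9 members matched RefSeq promoter windows. No 2 samples of a group shared more than 0.0963% identical values. Python 3.11.15, numpy 2.4.6, pandas 2.3.3, scipy 1.17.1 and matplotlib 3.10.9 were used.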

Additional observations from a re-analysis of the deposited data

Results flagged for a closer look

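Of 39 groups of 5 samples examined for a single far value (Dixon's test, critical value 0.71), 1 held one, where chance gives about 1.95. The log2 ratio of Stat2 to Irf9 in control sample 2 was 1.184, above the other control samples, and the gap to the nearest of them took 0.793 of the spread from lowest to highest.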

How the results depend on the processing

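Of the values computed without leaving a sample out, 299 kept their direction and side of the threshold, or stayed within 1.5 times for a count, and the others follow. Among those counts, 6 members instead of 5 were higher under TPM in both comparisons and 4 under median centring in the miR-451a group. The number of members lower was 2 instead of 1 under median centring and under quantile normalization in both comparisons, and 0 under TPM in the miR-451a group. Irf1 passed under TPM (0.30 and 0.34). Irf2 was called lower under median centring (-0.17 and -0.16) and quantile normalization (-0.16 and -0.15) and had the opposite sign under TPM (0.0331 and 0.0658). In the miR-451a group Irf3 lost its call under median centring (0.11) and Stat5a under TPM (-0.0928). Irf5 changed sign under median centring (-0.0229 and -0.0183). The log2 ratio of Stat2 to Irf9 of the miR-451a group against control was 0.0196 with a pseudocount of 1. The cause was not tested.

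The labels do not say what samples with the same number share. The 15 pairs with the same number had correlations of their deviations of -0.15 to 0.264 (mean 0.076, beside -0.0189 over 60 pairs with other numbers), 8 of them over 0.1, and 12 of 30 best matches were with the own number. Since not every pair was over 0.1, the samples were not treated as paired. That rule does not show that samples with the same number were independent. With the replicate block, the SE against control was 0.0498 for Irf7, 0.0367 for Irf9 and 0.0516 for Stat2. Without the block these were 0.1854, 0.0794 and 0.1313. For Irf2, Irf3 and Irf5 the SE was slightly larger with the block. The limma calls of all members stood as without it. The ratios of Irf7 to Irf3 (1.87 and 1.97) and of Stat5a to Stat3 (-0.51 and -0.42) had an adjusted p = 0.125 in an exact sign-flip test over 5 pairs, which cannot go below p = 0.0625.

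With each sample left out in turn, 5 to 7 members were higher and 1 lower against control. Irf1 ranged from 0.14 to 0.33 and from 0.17 to 0.36 in the miR-144 and miR-451a groups, and Irf5 from 0.0465 to 0.23 and from 0.0615 to 0.24. The ratio of Stat2 to Irf9, which passed the threshold in neither miRNA group, ranged from 0.0241 to 0.106 in the miR-144 group and from -0.0471 to 0.0204 in the miR-451a group. Between the miRNA groups the ranges crossed 0 for Irf2 (-0.0009 to 0.0323), Irf5 (-0.0311 to 0.0741), Irf7 (-0.0711 to 0.13), Irf9 (-0.0251 to 0.0795), Stat2 (-0.13 to 0.0333), Stat3 (-0.0301 to 0.0039) and the ratio of Irf1 to Irf2 (-0.0140 to 0.0389), with no call.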
